A study of Mus musculus with 6 samples.

Results

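A set of interferon-stimulated genes, the usual readout of type I interferon activity, was followed in mouse hippocampus by sequencing of total RNA. The genes were taken by their symbols: Isg15, Irf7, Ifit3, Ifit1, Ifit2, Ifit3b, Rsad2, Oasl2, Usp18 and Bst2. Of these 10 symbols, 9 are among the 3733 genes analysed here and all 9 passed the filter on low counts. Oasl2 is not among them and is not analysed here. The study compared 3 treatment groups of 2 libraries each. The groups are labelled Control, whose treatment is not described further, PIA and PIA+IL-27. The title speaks of postnatal immune activation, and the design text calls the treated groups LPS (bacterial lipopolysaccharide) and LPS+rIL-27. The labels name no strain, age, sex, dose or time, and do not say whether a library came from 1 animal or a pool. The p-values therefore measure only the spread between these samples, which may be technical.

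Type I interferons are secreted when cells sense nucleic acids or bacterial products. They bind the receptor pair IFNAR1 and IFNAR2, and the kinases JAK1 and TYK2 then activate STAT proteins, which join IRF9 and bind interferon-stimulated response elements in the promoters of target genes. In the brain, microglia, astrocytes, endothelium and choroid plexus can all respond in this way. LPS acts through TLR4, whose adaptor TRIF leads to interferon beta, and IL-27 also signals through JAK kinases and STAT proteins.

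The promoters of the 9 genes were examined first, because interferon acts on its target genes through a known promoter element. The core of the response element was searched on both strands as GAAA, any 2 bases and GAAA, which reads TTTC, any 2 bases and TTTC on the other strand, and overlapping matches were counted separately. The windows were the RefSeq promoters of build GRCm38.p6, which run from 250 bases before to 50 bases after each start site. Of the 9 genes, 8 have an entry and 6 held a match, against 5.75% of the 2903 listed genes with an entry and 3.99% of all 27025 genes. The 6 stretches below run from base 200 to base 51 before the start site, 5′ to 3′ along the strand of the gene, with matches in capitals.

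Isg15, chr4:156200869-156201018, minus strand: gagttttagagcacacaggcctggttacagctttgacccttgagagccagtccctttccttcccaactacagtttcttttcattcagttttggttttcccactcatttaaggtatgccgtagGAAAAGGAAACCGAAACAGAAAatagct

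Bst2, chr8:71537523-71537672, minus strand: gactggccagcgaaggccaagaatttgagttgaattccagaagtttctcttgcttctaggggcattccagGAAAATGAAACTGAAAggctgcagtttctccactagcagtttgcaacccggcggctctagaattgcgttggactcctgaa

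Rsad2, chr12:26456503-26456652, minus strand: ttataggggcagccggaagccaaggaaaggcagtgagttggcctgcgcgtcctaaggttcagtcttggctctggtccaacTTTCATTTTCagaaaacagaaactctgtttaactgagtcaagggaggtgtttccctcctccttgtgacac

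Ifit1, chr19:34640689-34640838, plus strand: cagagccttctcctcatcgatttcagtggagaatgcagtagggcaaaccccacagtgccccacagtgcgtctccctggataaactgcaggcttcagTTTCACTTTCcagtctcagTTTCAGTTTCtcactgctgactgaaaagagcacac

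Ifit3, chr19:34583329-34583478, plus strand: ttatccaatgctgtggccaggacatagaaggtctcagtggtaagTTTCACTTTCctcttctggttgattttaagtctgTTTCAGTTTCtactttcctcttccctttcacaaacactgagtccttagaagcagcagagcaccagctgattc

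Ifit3b, chr19:34607757-34607906, plus strand: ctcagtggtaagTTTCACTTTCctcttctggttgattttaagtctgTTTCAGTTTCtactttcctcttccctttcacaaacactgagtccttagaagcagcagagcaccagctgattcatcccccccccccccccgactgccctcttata

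Isg15 held 3 overlapping matches, the first of which starts 78 bases before the start site. Bst2 held 2 overlapping matches and Rsad2 held 1. Ifit1, Ifit3 and Ifit3b each held 2 separate matches on the other strand. The windows of Irf7 (1 window) and Ifit2 (2 windows) held no match to these letters. Among 51 other listed genes of the interferon pathway with an entry, 23 (45.1%) held a match. A match describes the sequence and does not show that a factor bound it.

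The authors' scaling factors lay between 0.917 and 1.05, and reads in the listed genes numbered 641672 to 1593441 per library. A normalized read count is the authors' read count, rounded up and then divided by the factor of its library. The labelled tissue was checked with markers of dentate granule cells, of which 4 of 9 are listed. Prox1, their defining transcription factor, was at 96.0 (PIA 2) and 172 (PIA+IL-27 1) normalized read counts, against 590 to 1358 in the other libraries. Dsp was also lowest in these libraries, but Maml2 (157) was above Control 1 and PIA 1 in PIA+IL-27 1, Stxbp6 was highest there (709), and the sum of the 4 markers ranged from 314 (PIA 2) to 2051, with 1055 in PIA+IL-27 1. Summed neocortical markers (5 of 12 listed) were 5947 and 8698 in PIA 2 and PIA+IL-27 1 and 1271 to 2730 in the others, and 4 of the 5 were highest in these libraries, Foxp2 being the exception. Summed choroid plexus markers (15 of 16 listed) were 66283 in Control 2 and 12889 in PIA 1, against 682 to 1546 elsewhere. Ttr alone made up 58611 (Control 2) and 11302 (PIA 1) of these sums. In PIA 1, Enpp2, Kcnj13, Slc4a5, Prlr and Calml4 were below at least 1 library with a low sum. The other listed markers were above all libraries with a low sum. Y-linked transcripts (4 of 4 listed) summed to 541 (PIA 1), 594 (PIA 2) and 1476 (PIA+IL-27 1), against 2.94 to 9.52 in the other libraries. No Control library therefore has the Y-linked level of PIA, and treatment and this difference cannot be told apart in PIA against Control. All values below are given by library for these reasons.

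Isg15 encodes a ubiquitin-like protein that is attached to other proteins during the interferon response. Its normalized read count was 99.9 for Control 1 and 10.5 for Control 2, then 270.0 for PIA 1 and 96.0 for PIA 2, then 17.7 for PIA+IL-27 1 and 195 for PIA+IL-27 2. Fewer cells of a type and less RNA per cell cannot be told apart in bulk tissue such as this. PIA 1 and PIA+IL-27 2 were the highest libraries and Control 2 the lowest, and each group overlapped both others. The means were 55.2 ± 63.2 (SD, n = 2) for Control, 183 ± 123 for PIA and 106 ± 125 for the group given IL-27. The fitted log2 fold change was 1.73 ± 0.97 (SE) in PIA against Control (adjusted p = 0.617, edgeR quasi-likelihood test, adjusted over 3216 genes), -0.78 ± 0.94 in PIA+IL-27 against PIA (adjusted p = 0.468) and 0.95 ± 0.95 in PIA+IL-27 against Control (adjusted p = 0.835). The 2 Control libraries differed by 9.54-fold, more than the fitted 3.31-fold between PIA and Control.

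Usp18 encodes the protease that removes ISG15 and also blocks the interferon receptor, which makes it a feedback inhibitor. Its normalized read count was 88.2 for Control 1 and 4.76 for Control 2, then 144 for PIA 1 and 66.6 for PIA 2, then 17.7 for PIA+IL-27 1 and 308 for PIA+IL-27 2. The order of libraries was that of Isg15 except that PIA+IL-27 2 exceeded PIA 1. For Usp18 the log2 fold change was 1.18 ± 0.96 in PIA against Control (adjusted p = 0.617, edgeR) and 1.81 ± 0.97 in PIA+IL-27 against Control (adjusted p = 0.835, edgeR). These SEs rest on a spread pooled over genes, and DESeq2 gave an SE of 1.80 in PIA against Control. Replicates of Usp18 differed by 18.5-fold in Control and by 17.4-fold in PIA+IL-27, the widest spreads of the 9 genes in those groups.

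Irf7, the transcription factor that amplifies interferon production, had normalized read counts of 358 and 21.9 (Control 1, Control 2), 789.8 and 251 (PIA 1, PIA 2) and 49.0 and 396 (PIA+IL-27 1, PIA+IL-27 2). The highest library of Irf7 was PIA 1, and the highest libraries of Control and PIA+IL-27 both lay above PIA 2. Its log2 fold change was 1.45 ± 0.88 in PIA against Control (adjusted p = 0.617, edgeR), -1.22 ± 0.87 in PIA+IL-27 against PIA (adjusted p = 0.324) and 0.23 ± 0.87 in PIA+IL-27 against Control (adjusted p = 0.893). The ratio of Isg15 to Irf7 within a library stayed between 0.279 and 0.493 over all 6 libraries, although Isg15 itself spanned 10.5 to 270.0.

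The Ifit genes, whose products bind foreign RNA, lie in a cluster on chromosome 19 in the order Ifit2, Ifit3, Ifit3b and Ifit1 in RefSeq (GRCm38.p6), with the related Ifit1bl1 and Ifit1bl2 between them. Ifit3 had normalized read counts of 45.1 and 16.2 (Control 1, Control 2), 206 and 70.9 (PIA 1, PIA 2) and 51.1 and 253 (PIA+IL-27 1, PIA+IL-27 2). Neither treated group overlapped Control, and the treated groups overlapped each other. The log2 fold change of Ifit3 was 2.18 ± 0.99 in PIA against Control (unadjusted p = 0.0271, adjusted p = 0.617, edgeR) and 2.33 ± 0.99 in PIA+IL-27 against Control (unadjusted p = 0.019, adjusted p = 0.835), and 0.14 ± 0.94 in PIA+IL-27 against PIA (adjusted p = 0.891). Ifit3b, a near copy, had 15.7 and 5.71 (Control 1, Control 2), 52.8 and 20.7 (PIA 1, PIA 2) and 11.5 and 83.5 (PIA+IL-27 1, PIA+IL-27 2). The GENCODE transcripts of Ifit3 and Ifit3b differ at 34 of 1697 aligned bases, and the read counts of both are not whole in any of the 6 libraries, so their reads were shared out by estimation. The summed copies came to 60.7 (Control 1), 21.9 (Control 2), 258 (PIA 1), 91.6 (PIA 2), 62.6 (PIA+IL-27 1) and 337 (PIA+IL-27 2). By this sum both PIA libraries lay above Control, while PIA+IL-27 1 exceeded Control 1 only narrowly. That narrow gap depends on the scaling. Unscaled reads of Ifit3 and Ifit3b were 48.28 and 10.72 (PIA+IL-27 1) against 45.22 and 15.78 (Control 1), the reverse order when summed. Ifit3b alone was lower in PIA+IL-27 1 than in Control 1. Of all listed genes, 17.2% were higher without overlap when PIA was compared with Control, and 23.0% when PIA+IL-27 was.

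Ifit1 had few reads in 5 libraries, at normalized read counts of 8.82 (Control 1), 5.71 (Control 2), 26.9 (PIA 1), 5.46 (PIA 2) and 8.34 (PIA+IL-27 1), against 76.7 (PIA+IL-27 2). The single high library sets its group mean of 42.5 ± 48.3 (SD, n = 2), and its log2 fold change of 2.53 ± 1.17 in PIA+IL-27 against Control (unadjusted p = 0.0306, adjusted p = 0.835, edgeR) came to 0.20 without that library. Rsad2, the antiviral enzyme viperin, was likewise highest in PIA+IL-27 2, with 72.8 normalized read counts, beside 15.6 (PIA+IL-27 1), 38.4 (PIA 1), 3.27 (PIA 2), 15.7 (Control 1) and 9.52 (Control 2). In PIA against Control the log2 fold change of Rsad2 was 0.73 ± 1.10 (adjusted p = 0.658, edgeR), and it was -1.90 without PIA 1.

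Ifit2 stood apart from the other 8 genes. Its normalized read count was 35.3 for Control 1 and 131 for Control 2, then 64.4 for PIA 1 and 51.3 for PIA 2, then 201 for PIA+IL-27 1 and 224 for PIA+IL-27 2. Control 2, the lowest library for 6 of the 9 genes, was above both PIA libraries for Ifit2, and both PIA+IL-27 libraries were above all others. Replicates of Ifit2 differed by only 1.26-fold in PIA and 1.11-fold in PIA+IL-27. The log2 fold change of Ifit2 in PIA+IL-27 against PIA was 1.88 ± 0.97 (adjusted p = 0.264, edgeR). With only the 4 libraries of that comparison in the fit it was 1.88 ± 0.47 (adjusted p = 0.0493), and 449 genes were then called in place of 14. Its adjusted p ran from 0.0493 to 0.713 over all alternatives. In PIA against Control the value was -0.53 ± 0.95 (adjusted p = 0.685), and it turned to 0.71 without Control 2.

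Bst2 encodes tetherin, a membrane protein that holds budding virus particles to the cell. It had normalized read counts of 301 and 61.9 (Control 1, Control 2), 719 and 264 (PIA 1, PIA 2) and 79.2 and 313 (PIA+IL-27 1, PIA+IL-27 2). PIA 1 was highest, and Control 1 and PIA+IL-27 2 lay above PIA 2. The log2 fold change of Bst2 was 1.44 ± 0.89 in PIA against Control (adjusted p = 0.617, edgeR), -1.33 ± 0.88 in PIA+IL-27 against PIA (adjusted p = 0.309) and 0.11 ± 0.87 in PIA+IL-27 against Control (adjusted p = 0.947).

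**Figure D1:**
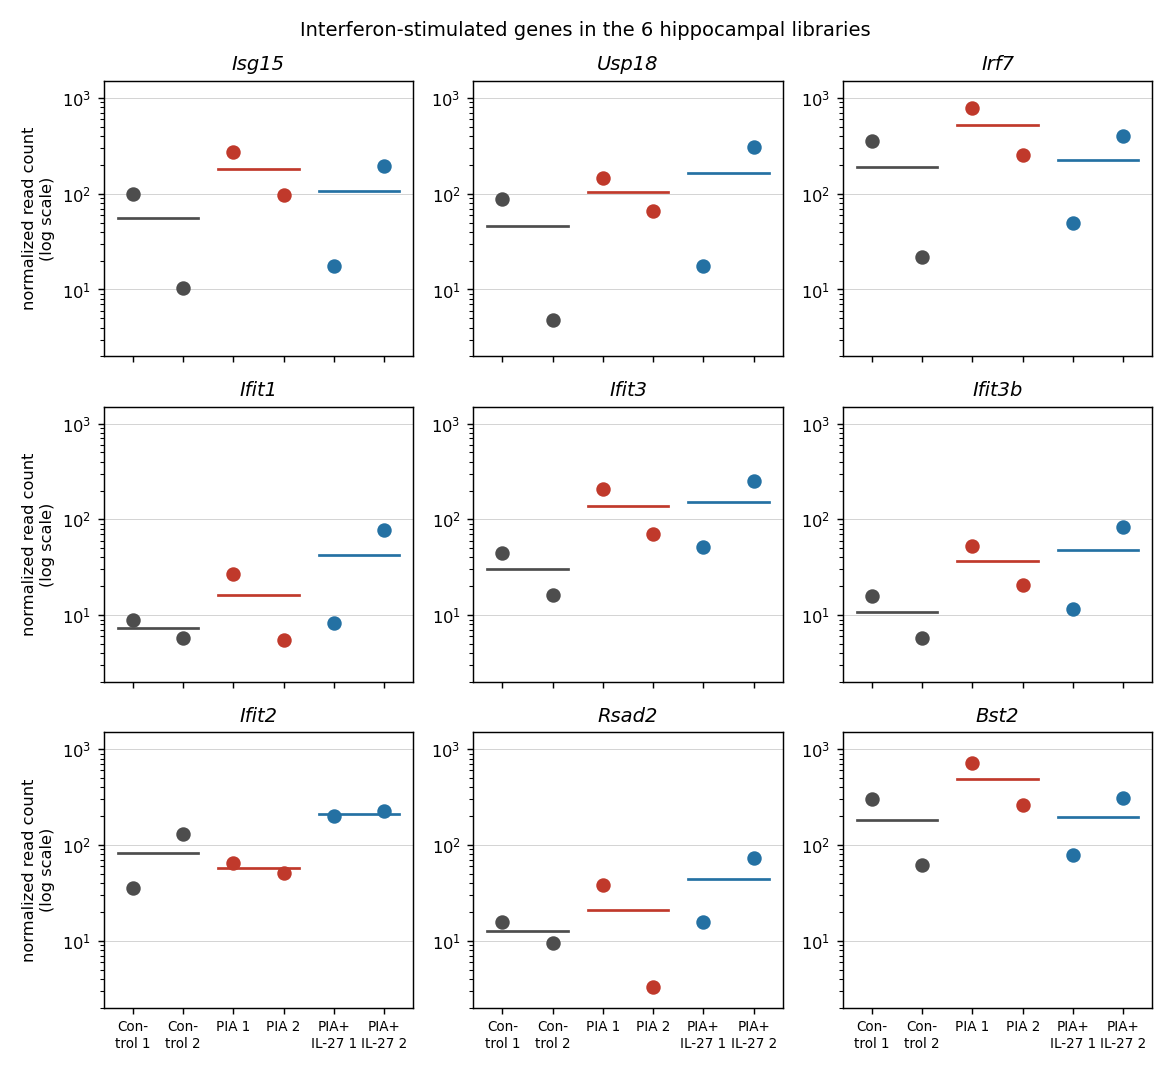
Normalized read counts (log scale) of the 9 interferon genes in each library; points are libraries, lines are group means of 2 libraries. PIA 1 and PIA+IL-27 2 are the highest libraries for 8 genes, while in Ifit2 both PIA+IL-27 libraries (201 and 224) lie above all others.

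Levels between genes were compared per length, in TPM (a length-corrected abundance with the same total in each library). Bst2 had the highest mean over the 6 libraries at 61.6 TPM, with a range from 15.0 to 150.02 TPM. Isg15 followed at 27.5 TPM and Irf7 at 21.2 TPM, then Usp18 at 7.56 and Ifit3 at 6.655 TPM. Ifit2 had 3.62, Ifit3b 1.94, Ifit1 1.01 and Rsad2 0.79 TPM. The ranges of all neighbours in this order overlapped, so it describes the means only.

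Within each group, most of the 9 genes differed between the replicates in the same direction. PIA 1 exceeded PIA 2 by at least 2-fold in 8 of 9 genes, against 21.5% of all listed genes. PIA+IL-27 2 exceeded PIA+IL-27 1 by at least 2-fold in 8 of 9, against 14.7% of all listed genes, and Control 1 exceeded Control 2 by that much in 6 of 9, against 12.9%. Summed over the 9 genes, the normalized read counts came to 968 (Control 1), 268 (Control 2), 2311 (PIA 1), 829 (PIA 2), 451 (PIA+IL-27 1) and 1922 (PIA+IL-27 2). By this sum Control 1 lay above PIA 2 and above PIA+IL-27 1, and all groups overlapped. Of the 9 genes, 3 were highest in PIA 1 and 6 in PIA+IL-27 2, whereas PIA+IL-27 1 was the highest library for 40.7% of all listed genes and PIA+IL-27 2 for 11.4%.

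Marker levels of other cells did not follow 1 order with these genes. Summed neutrophil and monocyte markers (11 of 14 listed) came to 1324 (Control 1), 176 (Control 2), 2643 (PIA 1), 741 (PIA 2), 589 (PIA+IL-27 1) and 193 (PIA+IL-27 2). They were thus high with the interferon genes in PIA 1 and Control 1, but near the lowest in PIA+IL-27 2, where the interferon genes were high. Lyz2, which other myeloid cells also express, made up 114 to 978 of these sums. Ly6c2 and Plac8 in these sums, and Ly6c1 among the endothelial markers, are interferon-stimulated and are also counted below among further genes of the interferon pathway. These marker sums are therefore not free of interferon-stimulated genes. Ly6g, a marker of neutrophils, had few reads, with 11 in PIA 1 and 0 in PIA 2 and in both PIA+IL-27 libraries. Mpo and Elane also had few reads and another order. Mpo was highest in PIA+IL-27 1 (12.5) and Elane in PIA 2 (6.55). S100a8 was at 598 in PIA 1, 153 in Control 1 and 5.71 to 26.1 elsewhere. Summed microglial markers (5 of 12 listed) ranged from 966 to 2901 and were highest in PIA 2, where C1qa (1501) and C1qb (1285) made up most of the sum. The other 3 microglial markers had another order: P2ry12 was at 56.7 in PIA 2, against 232 in Control 2, 258 in PIA+IL-27 1 and 184 in PIA+IL-27 2, and Siglech and Gpr34 were likewise lower in PIA 2 than in those libraries. Summed endothelial and pericyte markers (4 of 12 listed) ranged from 1145 to 2630, with no common order: Vwf was lowest in PIA+IL-27 2 (161), Rgs5 and Slco1a4 were lowest in PIA 2, and Ly6c1 was lowest in PIA+IL-27 1. Summed meningeal fibroblast markers (4 of 11 listed) ranged from 2969 to 11078, and all 4 were lowest in PIA+IL-27 2. The part of cell composition in the interferon values was not tested.

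In PIA against Control, 0 of the 9 genes passed edgeR's test at an adjusted p of 0.05, and 0.218% of all 3216 tested genes did. DESeq2 and limma also called 0 of the 9. At an unadjusted p under 0.05 there was 1 of the 9 genes, Ifit3, against 6.28% of all tested genes. The fitted log2 fold change was above 0 in 8 of 9, the exception being Ifit2, which turned above 0 with scaling over the listed genes. The median of the 9 was 1.44, beside a median of -0.68 over all tested genes. PIA did not overlap Control, and was higher, in 2 of 9 genes, Ifit3 and Ifit3b, against 17.2% of all listed genes. These 2 are the near copies whose reads were shared out by estimation, so they do not count separately. A comparison of 2 against 2 libraries cannot give an exact two-sided permutation p under 0.333. In the authors' deposited table, 7 of the 9 genes pass a log2 fold change limit of 1 and a Q limit of 0.05 in this direction, against 18.0% of all listed genes, with a Q value of 4.38e-32 for Isg15. The larger within-group fold exceeded the fitted between-group fold for 7 of the 9 genes. The same count was not made over all tested genes, so it cannot be read as particular to the 9. The median ran from 0.52 without PIA 1 to 2.99 without Control 1, and was 0.71 without Control 2 and 2.42 with an added term shared by PIA 2 and PIA+IL-27 1, which had the most neocortical marker reads.

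Between PIA+IL-27 and PIA, 0 of the 9 genes passed (0.435% of all tested genes; 0 of the 9 by DESeq2 and limma), and 0 had an unadjusted p under 0.05 in edgeR, against 18.7% of all tested genes. The log2 fold changes lay on both sides of 0, with 6 above and 3 below (Isg15, Irf7 and Bst2). The median of the 9 was 0.35, below the median of 1.17 over all tested genes. With TMM scaling over the listed genes, which moved the median of all genes to -0.03, the split was 3 above and 6 below and the median of the 9 was -0.68. The groups did not overlap in 1 gene, Ifit2, which was higher in PIA+IL-27 (57.1% of all listed genes were), and in 0 genes in the lower direction (16.5%). The authors' deposited table lists 3 of the 9 as higher (61.4% of all listed genes) and 2 as lower (18.2%). The median was -1.67 without PIA+IL-27 2, 1.16 without PIA+IL-27 1, 1.18 without PIA 1 and -0.17 without PIA 2.

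Between PIA+IL-27 and Control, 0 of the 9 genes passed (0.311% of all tested genes; 0 of the 9 by DESeq2 and limma). At an unadjusted p under 0.05 there were 3 of the 9 in edgeR, Ifit1, Ifit3 and Ifit3b, against 2.86% of all tested genes. Ifit3 and Ifit3b are near copies whose reads were shared out by estimation, so they do not count separately. Ifit1 was high only in PIA+IL-27 2. All 9 log2 fold changes were above 0 with the authors' scaling, with a median of 1.80 beside 0.55 over all tested genes. With TMM scaling, 6 were above and 3 below 0 (Isg15, Irf7 and Bst2), with a median of 0.92. Both PIA+IL-27 libraries lay above both Control libraries for Ifit2 and Ifit3, which is 2 of 9 against 23.0% of all listed genes. The authors' deposited table lists 6 of the 9 as higher, against 13.3% of all listed genes. Without PIA+IL-27 2 the median of the 9 was 0.17, and without Control 1 it was 3.22. This comparison and those above share libraries, so their values are not independent of each other.

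**Figure D2:**
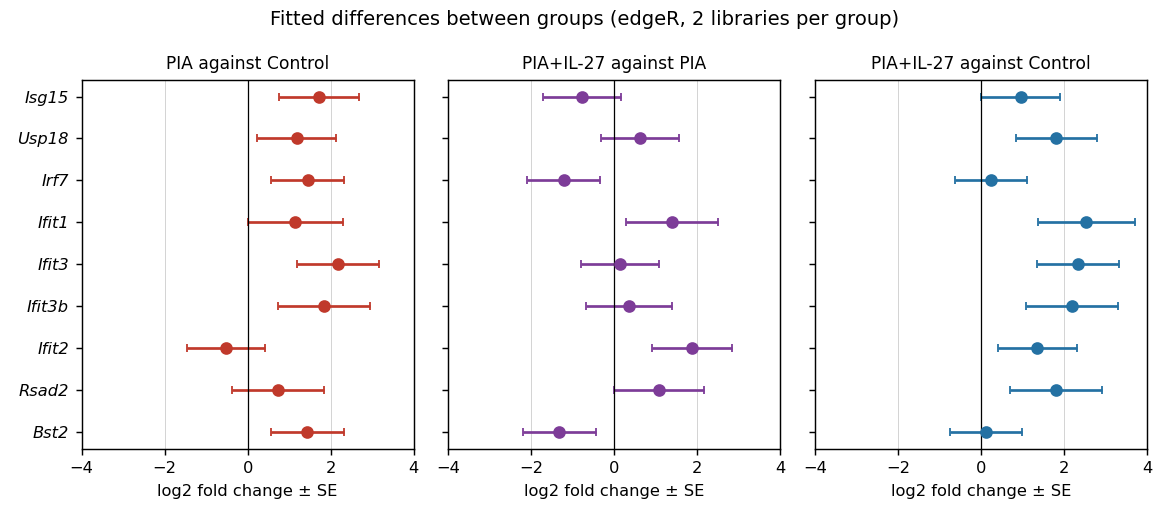
Fitted log2 fold changes of the 9 genes (x axis) with standard errors as bars, in 3 comparisons of 2 libraries per group. In PIA against Control 8 of 9 points lie above 0, in PIA+IL-27 against PIA 6 of 9, and the standard errors span 0.87 to 1.17 log2 units.

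The 9 transcripts differ in GC content, and log2 fold changes between the groups varied with GC content. The GC content of the libraries was not measured, and the cause of this trend was not tested. Ifit2, Ifit1 and Rsad2 have the lowest GC content, at 42.0, 43.3 and 43.9%, followed by Ifit3b (45.8%), Ifit3 (47.5%), Usp18 (50.9%), Isg15 (52.8%), Irf7 and Bst2 (both 55.3%). The median over 3597 listed genes with a GENCODE transcript is 44.9%. In PIA+IL-27 against PIA the log2 fold changes of the 9 genes lay in nearly the same order, from 1.88 for Ifit2, 1.38 for Ifit1 and 1.07 for Rsad2 down to -1.22 for Irf7 and -1.33 for Bst2, with Usp18 (0.63) above its place. All listed genes showed the same course: the median log2 fold change was 1.65 in the fifth of genes with the lowest GC content and -1.10 in the fifth with the highest. After removal of GC and length trends (loess fit in each library), Ifit2 came to 0.57, Rsad2 to 0.17, Isg15 to 0.14, Irf7 to -0.31 and Bst2 to -0.32, while Usp18 came to 1.22. In PIA against Control the same step left all 9 values above 0, with a median of 1.03, Ifit2 turning from -0.53 to 0.28. The step also rescales the libraries. It moved the median of all tested genes from -0.68 to -0.02 in PIA against Control. In PIA+IL-27 against PIA that median moved from 1.17 to 0.10. TMM scaling, without any GC term, also gave 9 values above 0 in PIA against Control, with Ifit2 at 0.22. The turn of Ifit2 there thus cannot be assigned to GC content.

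**Figure D3:**
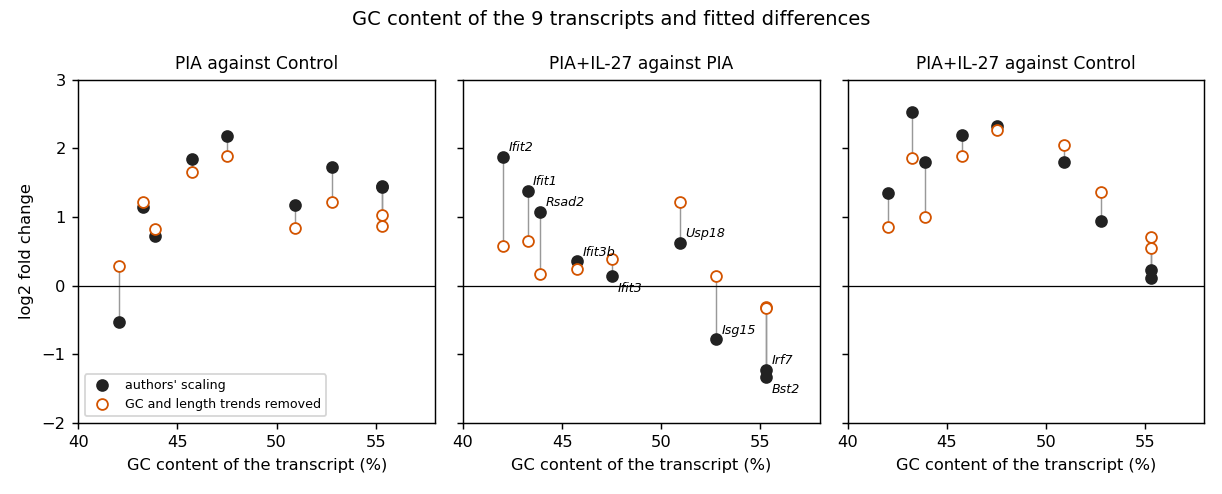
GC content of the longest coding transcript (x axis, %) against the log2 fold change of each of the 9 genes, with the authors' scaling (filled) and with GC and length trends removed (open). In PIA+IL-27 against PIA the filled points run from 1.88 (Ifit2) to -1.33 (Bst2), and the open points from 1.22 (Usp18) to -0.32 (Bst2). The step behind the open points also rescales the libraries.

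Ratios between genes within a library do not depend on the scaling of that library. Ifit3 exceeded its near copy Ifit3b by 2.83 to 4.45-fold in every library. These ratios rest on counts rounded up, which matters most where counts are low, such as 16.75 and 5.25 in Control 2. The ratio of Ifit3 to Ifit2 was above 1 for 4 libraries, at 1.28 (Control 1), 3.19 (PIA 1), 1.38 (PIA 2) and 1.13 (PIA+IL-27 2), but 0.123 (Control 2) and 0.254 (PIA+IL-27 1) for the others. Irf7 was compared with Irf1, the related factor that responds strongly to interferon gamma. The ratio of Irf7 to Irf1 was 1.81 (Control 1), 2.57 (PIA 1) and 3.52 (PIA+IL-27 2), against 0.258 (Control 2), 0.296 (PIA 2) and 0.329 (PIA+IL-27 1). Each group thus held 1 library above 1 and 1 library near 0.3, and no group was separated from another by this ratio.

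**Figure D4:**
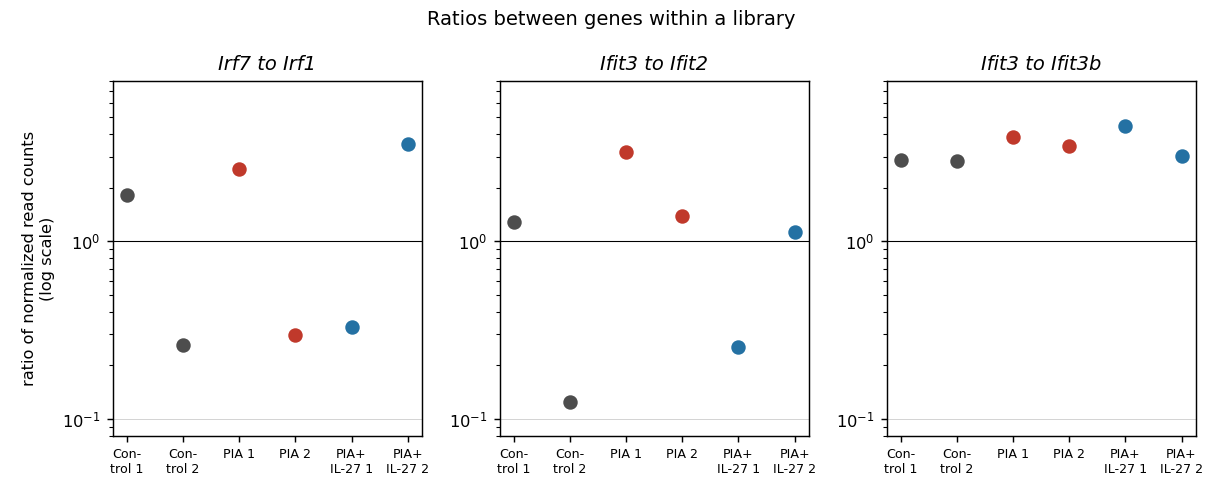
Ratios of normalized read counts of 3 gene pairs within each library (log scale; the line marks a ratio of 1). Irf7 to Irf1 is 1.81 to 3.52 in 1 library of each group and 0.258 to 0.329 in the other, while Ifit3 to Ifit3b is between 2.83 and 4.45 throughout.

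Of 134 further genes of the interferon pathway, 62 are listed and 56 were tested, and 0 passed in any of the 3 comparisons in edgeR. At an unadjusted p under 0.05 there were 6 of the 56 in PIA against Control (6.28% of all tested genes), 10 in PIA+IL-27 against PIA (18.7% of all tested genes) and 0 in PIA+IL-27 against Control (2.86% of all tested genes). In PIA against Control 47 of the 56 log2 fold changes were above 0, with a median of 1.07, beside 27.8% and a median of -0.68 over all tested genes, and PIA lay wholly above Control in 24 of the 62 genes (17.2% of all listed genes). For PIA+IL-27 against PIA 26 were above and 30 below 0, with a median of -0.14, beside 74.8% above 0 and a median of 1.17 over all tested genes. For PIA+IL-27 against Control 37 were above and 19 below, with a median of 0.67, beside 73.3% above 0 and a median of 0.55. The interferon ligands and the receptor chains are not among the listed genes and were not analysed here.

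Irf9, the DNA-binding subunit of the complex that carries the type I interferon signal to the nucleus, had normalized read counts of 332 and 170.4 (Control 1, Control 2), 490.04 and 567 (PIA 1, PIA 2) and 274 and 818 (PIA+IL-27 1, PIA+IL-27 2). The PIA libraries lay above both Control libraries and close together, and the PIA+IL-27 libraries lay on either side of them. The log2 fold change of Irf9 in PIA against Control was 1.07 ± 0.87 (adjusted p = 0.617, edgeR).

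The 3 listed regulatory factors other than Irf7 had another order. Irf1 had normalized read counts of 198 and 84.7 (Control 1, Control 2), 307 and 847 (PIA 1, PIA 2) and 149 and 113 (PIA+IL-27 1, PIA+IL-27 2). Irf8, a factor of microglia and other myeloid cells, had 163 and 67.6 (Control 1, Control 2), 187 and 429 (PIA 1, PIA 2) and 146 and 83.5 (PIA+IL-27 1, PIA+IL-27 2). Irf5, which acts below Toll-like receptors, had 96.0 and 47.6, 97.05 and 121, and 68.8 and 31.1. All 3 were highest in PIA 2, lay higher in both PIA libraries than in either library of the other groups, and were lower in PIA+IL-27 2 than in PIA+IL-27 1. For Irf5 the gap between PIA 1 (97.05) and Control 1 (96.0) was narrow. Of all listed genes, 17.2% were higher without overlap in PIA against Control and 16.5% lower in PIA+IL-27 against PIA. Of the 5 listed markers of microglia, the complement genes C1qa and C1qb were also highest in PIA 2. C1qa was at 1501 in PIA 2, 627 in PIA+IL-27 1 and 355 in PIA+IL-27 2. The others, P2ry12, Siglech and Gpr34, were lower in PIA 2 than in both PIA+IL-27 libraries. P2ry12 was at 56.7 in PIA 2, 258 in PIA+IL-27 1 and 184 in PIA+IL-27 2. The part of microglia in the values of the 3 factors was not tested. None passed in edgeR, with log2 fold changes in PIA+IL-27 against PIA of -2.14 ± 0.91 for Irf1 (adjusted p = 0.257), -1.42 ± 0.92 for Irf8 (adjusted p = 0.301) and -1.13 ± 0.97 for Irf5 (adjusted p = 0.348). Tap1, the peptide transporter of MHC class I loading, was likewise highest in PIA 2, with 269 and 125 (Control 1, Control 2), 448 and 1033 (PIA 1, PIA 2) and 147 and 269.9 (PIA+IL-27 1, PIA+IL-27 2).

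Among the sensors of nucleic acids, Ddx58 (RIG-I) had normalized read counts of 103 and 75.2 (Control 1, Control 2), 174 and 88.4 (PIA 1, PIA 2) and 117 and 295 (PIA+IL-27 1, PIA+IL-27 2). Dhx58 (LGP2) had 49.95 and 20.0, 80.7 and 73.1, and 26.1 and 70.9. Ddx58 was highest in PIA+IL-27 2, as were 6 of the 9 interferon genes. The adaptor Myd88 had 146 and 72.4 (Control 1, Control 2), 243 and 202 (PIA 1, PIA 2) and 103 and 69.9 (PIA+IL-27 1, PIA+IL-27 2), and the kinase Ikbke had 101 and 25.7, 209 and 127, and 60.5 and 20.4. For Myd88 and Ikbke both PIA libraries lay above all 4 others.

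The antiviral effectors with the most reads included the Ifitm genes, whose membrane proteins block virus entry. Ifitm3 had normalized read counts of 1077 and 175 (Control 1, Control 2), 2309 and 539 (PIA 1, PIA 2) and 265 and 730.1 (PIA+IL-27 1, PIA+IL-27 2), the same order of libraries within each group as Isg15. Ifitm2 had 829.6 and 468 (Control 1, Control 2), 1386 and 591 (PIA 1, PIA 2) and 408 and 412 (PIA+IL-27 1, PIA+IL-27 2). Ifitm1 had 162 and 51.4, 593 and 74.2, and 52.1 and 16.5. It had the lowest p of the 56 genes in PIA+IL-27 against PIA, with a log2 fold change of -3.28 ± 1.002 (unadjusted p = 0.00107, adjusted p = 0.123, edgeR), and was chosen for this remark after its value was seen.

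Uba7, the activating enzyme of ISG15 conjugation, had normalized read counts of 77.4 and 17.1 (Control 1, Control 2), 97.05 and 187 (PIA 1, PIA 2) and 30.2 and 65.1 (PIA+IL-27 1, PIA+IL-27 2). Herc6, the ligase of the same pathway in mice, had 11.8 and 25.7, 32.7 and 30.5, and 52.1 and 62.1. Uba7 was highest in PIA 2 and Herc6 in PIA+IL-27 2. Of the inhibitors, Socs3, which IL-6 type cytokines induce, had 180.2 and 79.03 (Control 1, Control 2), 368 and 143 (PIA 1, PIA 2) and 54.2 and 63.1 (PIA+IL-27 1, PIA+IL-27 2), and Pias1, an inhibitor of STAT proteins, had 234 and 531, 309 and 188, and 585 and 484. Ly6a, Ly6c1 and Usp25 are the remaining named genes of the list: Ly6a had 66.7 to 663 over the 6 libraries and Ly6c1 91.8 to 483, both highest in PIA 1, and Usp25 had 74.2 to 364, highest in PIA+IL-27 1.

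**Figure D5:**
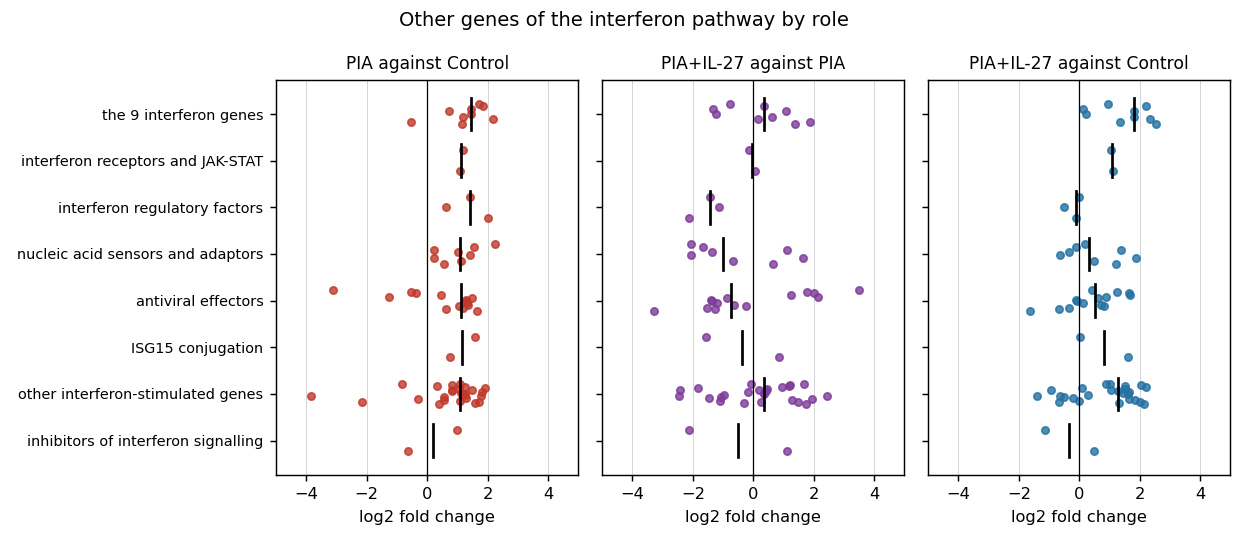
Log2 fold changes (x axis) of the 9 interferon genes and of 56 further pathway genes by role, in 3 comparisons; points are genes and black bars are medians. In PIA+IL-27 against PIA the 3 regulatory factors lie at a median of -1.42 and the 9 interferon genes at 0.35.

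The genes outside these lists with the library profile most like that of Isg15, Irf7 and Ifit3 were taken by the root mean square difference of centred log2 values over the 6 libraries. Among 2986 genes with a mean of at least 10 normalized read counts, the 5 nearest were Irgm1 (0.62), Ttll2 (0.66), Slfn2 (0.70), Capg (0.76) and Gbp3 (0.79), beside a median of 1.99. Irgm1, an interferon-induced GTPase, had normalized read counts of 178 and 62.8 (Control 1, Control 2), 544 and 504 (PIA 1, PIA 2) and 108 and 461 (PIA+IL-27 1, PIA+IL-27 2). Slfn2, a Schlafen gene of immune cells, had 102 and 16.2, 225 and 87.3, and 28.2 and 62.1. Within the pathway list the nearest profiles were those of Oas1a (0.34), Oasl1 (0.43), Oas3 (0.54) and Oas2 (0.59). Oas1a, Oas2 and Oas3 belong to the family of synthetases that respond to double-stranded RNA, and Oasl1 is a relative without that enzyme activity. These genes were named after their values were seen. Of the 9 genes, Ifit2 (2.06) lay above the median of all genes compared.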

How the data were processed

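Expected counts, estimated per gene and library, were deposited by the authors; up to 13.3% of the values per library are not whole. Dividing the count, rounded up, by 1 factor per library gives the authors' normalized read count (a signal) (100% of values within 1e-06). TPM and FPKM were deposited by the authors per library; FPKM was not used. The deposited log2 fold changes and Q values (p-values adjusted by the authors) are quoted as the authors' own. For aligner, counter, build, strandedness and test no label or header gives a name. All 3733 genes meet the authors' limits in at least 1 comparison, so the table is a selection made on these libraries, and adjusted p-values do not control errors over the genome. A further 51 columns of means and single-library comparisons were not used.

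The quasi-likelihood test of edgeR 4.0.16 under R 4.3.3 took the rounded counts, 6 libraries in 1 fit, scaled by the authors' factors, after filterByExpr (3216 genes), with Benjamini-Hochberg adjustment and a threshold of 0.05. The common coefficient of variation was 0.597 and the prior degrees of freedom were infinite, so the spread was pooled over genes. The SEs of the 9 genes in PIA against Control thus lay between 0.88 and 1.15, whatever the spread of their own replicates. With DESeq2 they ran from 0.80 (Ifit2) to 1.80 (Usp18). The test was checked on simulated data with changes larger than those fitted for the 9 genes. Recovery was required only at a spread far below that of these data. The check therefore does not show that changes of the size fitted here would be found. DESeq2 1.42.0 and limma 3.58.1 (log2 of TPM plus 1 or 0.1), factors by TMM or median of ratios, an unfiltered fit, a replicate block, fewer libraries and each library left out were alternatives. GC and length trends (loess, span 0.5; lengths and GC from GENCODE for 96.4% of genes), a term for PIA 2 and PIA+IL-27 1 and a crossed block were added after seeing the data. The genes, lists and tests were chosen with earlier results of these data known. Named genes were all 9 interferon genes, up to 4 genes per role by mean count, any pathway gene past the threshold, and the 5 nearest profiles. Some genes that this rule names are not reported here.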

Additional observations from a re-analysis of the deposited data

How the results depend on the processing

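Of 457 alternative values of the 9 genes, 414 kept direction and side of the threshold, 42 reversed and 1 passed. The genes called numbered 0 in every alternative but 1: with only the libraries of the comparison, 1 (Ifit2) was called in PIA+IL-27 against PIA. The cause of that call was not tested. Over all genes, 7, 14 and 10 calls (PIA against Control, PIA+IL-27 against PIA, PIA+IL-27 against Control) became 2, 4 and 1 with DESeq2 and 0, 0 and 0 with TMM, with median-of-ratios factors and with GC and length trends removed. They became 3, 4 and 3 with the replicate block, whose numbers share only a label (same-numbered deviations correlated at 0.15, -0.27 and 0.08 across genes). A crossed replicate block gave 1 call in PIA+IL-27 against PIA and 5 in PIA+IL-27 against Control. Limma gave 12 and 5 in the comparisons with Control (0.1 added) and 2 in PIA+IL-27 against Control (1 added). The fit of only the compared libraries gave 449 calls in PIA+IL-27 against PIA and 1 in PIA+IL-27 against Control, and a shared term (PIA 2, PIA+IL-27 1) gave 2 and 3. Leaving out 1 library gave 0 to 7 calls in each comparison, and medians of the 9 genes of 0.52 to 2.99, -1.67 to 1.18 and 0.17 to 3.22.

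Reversed in PIA against Control was Ifit2 (0.22 TMM, 0.23 median-of-ratios, 0.28 trends removed; -1.18 to 0.71 with a library left out), as were Ifit1 (-0.40 to 1.87) and Rsad2 (-1.90 to 1.60) with a library left out. Reversed in PIA+IL-27 against PIA with TMM and median-of-ratios factors were Ifit3 (-0.88 and -0.90), Ifit3b (-0.68 and -0.69) and Usp18 (-0.39 and -0.42). With the crossed block these were -0.057, -0.031 and -0.59, and with a shared term (PIA 2, PIA+IL-27 1) they were -0.079, -0.059 and -0.35. Usp18 was -0.040 and -0.23 in limma with 1 and 0.1 added, and Isg15 was 0.14 with trends removed. With a library left out the ranges were -1.45 to 1.12 for Ifit3, -1.67 to 1.18 for Ifit3b, -2.56 to 1.54 for Usp18, -3.36 to 0.15 for Isg15, -0.95 to 2.94 for Ifit1 and -0.42 to 3.71 for Rsad2. Reversed in PIA+IL-27 against Control with TMM and median-of-ratios factors were Bst2 (-0.97 and -1.0), Irf7 (-0.93 and -0.98) and Isg15 (-0.15 and -0.20). With a library left out the ranges were -1.19 to 1.66 for Bst2, -1.95 to 3.34 for Irf7, -1.63 to 3.33 for Isg15 and -1.38 to 5.06 for Usp18. The cause of these reversals was not tested.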
